A study of Mus musculus with 79 samples.

Results

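The oxytocin receptor gene Oxtr and the vasopressin receptor genes Avpr1a and Avpr1b were examined in bulk RNA sequencing of the medial prefrontal cortex (mPFC) and the ventral hippocampus (vHipp) of 40 male mice. The members were chosen by name for their known roles in social behavior, and all 3 were found among the 55471 genes of the count table. The mice were wild-type CD-1 (ICR) males, an outbred strain, aged 9-10 weeks and housed in groups of 4. Control mice (CTRL) were left undefeated, and stressed mice (CSDS) went through 21 days of chronic social defeat stress, during which they were put back with their own cage mates after each defeat. After the 21 days all mice were moved in their groups to social box arenas, where they lived until the end. On day 4 there, saline or (R,S)-ketamine at 10 mg/kg was injected once intraperitoneally, and brains were collected 7 days later. Between injection and collection each group was moved repeatedly into a box with the bedding of another group. This gave 4 groups per region, namely CTRL saline, CTRL ketamine, CSDS saline and CSDS ketamine. Each held 10 mice, except that the mPFC of CSDS ketamine mice was analysed in 9, and every mouse but 1 had both regions. A punch holds all the cells of the tissue, so fewer cells that express a receptor and less RNA per cell cannot be told apart.

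Oxytocin and vasopressin are closely related peptides made mainly by hypothalamic neurons. Their receptors belong to a single family of G protein-coupled receptors. Oxtr encodes the oxytocin receptor and Avpr1a the V1a vasopressin receptor, which is known for its part in social recognition and aggression. Avpr1b encodes the V1b receptor, which drives corticotropin release in the pituitary and in the brain marks the hippocampal field CA2. All 3 receptors couple to Gq proteins, which activate phospholipase C, release calcium through inositol trisphosphate receptors and activate protein kinase C.

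Library totals lay between 11726129 and 41767119 counts, with medians of 19519631 in the mPFC and 20121100 in the vHipp. Levels are given as CPM, the count as a share of the library total on a common scale, after scaling by TMM factors. The tissue labels were compared with marker genes. The 5 dentate gyrus markers, among them Prox1, summed to 114.2-563.9 CPM in the vHipp libraries and to 22.1-48.9 CPM in the mPFC libraries, with no overlap. The 4 upper cortical layer markers, among them Cux2, summed to 380-739 CPM in the mPFC and to 138.2-302.5 CPM in the vHipp, again with no overlap. Other lists did not separate the regions as their names would. The 5 deep cortical layer markers had a median of 274.5 CPM in the vHipp against 218.8 CPM in the mPFC, and the 4 CA1 markers had 182.2 CPM in the mPFC against 124.2 CPM in the vHipp. The vHipp punches differed widely from each other. The 4 CA1 markers spanned 48.4-524 CPM across them. The 5 choroid plexus markers had a median of 21.3 CPM and reached 708 CPM in a single CSDS saline library, while the other 3 groups reached at most 30.3 CPM.

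In GRCm38, with positions from the count table, Oxtr (ENSMUSG00000049112) lies on the minus strand at chr6:112473683-112489943. Avpr1a (ENSMUSG00000020123) lies on the plus strand at chr10:122448499-122453452. Avpr1b (ENSMUSG00000026432) lies on the plus strand at chr1:131599239-131612000. The counted exons of the 3 genes span 4790, 2670 and 4023 bases. All of Avpr1a lies within the annotated span of the antisense gene Gm48877 (chr10:122405113-122546498). Whether the counting used strand is not given in the sources used here, but Gm48877 had 0 counts in all 79 libraries.

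Oxtr was the only one of the 3 genes with a steady signal. It had a median of 158 counts per library in the mPFC (highest 431) and of 218.5 in the vHipp (highest 540), and no library was near 0. Per kilobase of exon, Oxtr reached 1.86 ± 0.49 CPM (SD, n = 39) in the mPFC and 2.32 ± 0.595 CPM (SD, n = 40) in the vHipp. This placed it above 44.2% of the protein-coding genes with a count in the mPFC and above 47.6% of those in the vHipp. Its mean per-kilobase level was 20.3 times that of Avpr1a in the mPFC and 20.6 times in the vHipp, and Oxtr was above Avpr1a in all 39 and all 40 libraries.

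In the mPFC, Oxtr of CTRL saline mice ran from 6.72 to 12.1 CPM around a median of 8.80 (mean 9.00 ± 1.63, SD, n = 10). CTRL ketamine mice ran from 6.96 to 11.6 CPM around 8.59 (mean 8.69 ± 1.41, SD, n = 10). CSDS saline mice ran from 5.15 to 14.9 CPM around 8.94 (mean 9.22 ± 3.14, SD, n = 10). The 4 mPFC groups of Oxtr overlapped almost fully, the last of them, CSDS ketamine, at 5.60 to 14.4 CPM around 7.66 (mean 8.63 ± 3.09, SD, n = 9). Both the lowest and the highest mPFC values were those of CSDS saline mice. The coefficient of variation was 18.1% and 16.2% in the CTRL groups and 34.0% and 35.9% in the CSDS groups. In the vHipp it was 34.8% and 22.4% in the CTRL saline and ketamine groups and 23.6% and 23.4% in the CSDS groups, so the regions did not show the same pattern, and no difference in spread was tested.

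In the vHipp, CTRL saline mice ran from 6.36 to 20.1 CPM of Oxtr around 10.1 (mean 11.0 ± 3.83, SD, n = 10). CTRL ketamine mice ran from 7.51 to 16.8 CPM around 11.4 (mean 11.7 ± 2.62, SD, n = 10). The CSDS groups lay within the same range. CSDS saline mice ran from 7.70 to 16.5 CPM around 10.6 (mean 10.9 ± 2.57, SD, n = 10), and CSDS ketamine mice from 7.07 to 15.7 CPM around 11.0 (mean 10.9 ± 2.56, SD, n = 10). The highest value came from mouse 30 of the CTRL saline group, with 426 counts and 20.1 CPM (exact 95% counting interval 18.2-22.1). Ordered by their means, all 4 vHipp groups of Oxtr stood above all 4 mPFC groups, and neighbors in this order differed by less than the SD within either.

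Avpr1a was sparse. In the mPFC it had 188 counts over 39 libraries, and in the vHipp 256 counts over 40. Per kilobase it reached 0.0917 ± 0.135 CPM (SD, n = 39) in the mPFC and 0.113 ± 0.0675 CPM (SD, n = 40) in the vHipp, above 21.7% and 23.1% of protein-coding genes with a count. In the mPFC library of mouse 26, of median depth, 3 counts equal 0.152 CPM. In all, 19 of 39 mPFC libraries and 12 of 40 vHipp libraries held 3 counts or fewer, so single libraries carry large counting error.

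Avpr1a in the mPFC of CTRL saline mice ran from 0 to 0.436 CPM around 0.212 (0-8 counts, mean 0.209 ± 0.129, SD, n = 10). CTRL ketamine mice ran from 0.0286 to 2.28 CPM around 0.276 (1-45 counts, mean 0.442 ± 0.671, SD, n = 10). A single library, that of mouse 26, gave the top of this range, and without it the CTRL ketamine group had a mean of 0.237 ± 0.189 CPM (SD, n = 9). CSDS saline mice ran from 0.048 to 0.379 CPM around 0.187 (1-6 counts, mean 0.176 ± 0.112, SD, n = 10). CSDS ketamine mice ran from 0 to 0.257 CPM around 0.125 (0-5 counts, mean 0.142 ± 0.0776, SD, n = 9). Apart from mouse 26 no mPFC library was above 0.505 CPM, and the 4 groups overlapped, with CSDS mice reaching less high than CTRL mice.

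In the vHipp, Avpr1a ran from 0.054 to 0.631 CPM around 0.288 in CTRL saline mice (1-18 counts, mean 0.293 ± 0.177, SD, n = 10). It ran from 0.105 to 0.727 CPM around 0.382 in CTRL ketamine mice (3-15 counts, mean 0.421 ± 0.21, SD, n = 10). The CSDS groups again reached less high, without being separate from the CTRL groups. CSDS saline mice ran from 0.0546 to 0.484 CPM around 0.185 (1-10 counts, mean 0.261 ± 0.15, SD, n = 10), and CSDS ketamine mice from 0 to 0.439 CPM around 0.225 (0-12 counts, mean 0.229 ± 0.14, SD, n = 10).

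Avpr1b was close to the limit of detection in both regions. It had 50 counts over 39 mPFC libraries, 19 of them at 0, and 80 counts over 40 vHipp libraries, 10 of them at 0. No library exceeded 11 counts. Per kilobase Avpr1b reached 0.0149 ± 0.0194 CPM (SD, n = 39) in the mPFC and 0.0225 ± 0.0246 CPM (SD, n = 40) in the vHipp. Avpr1a was higher by 6.14 and 5.01 times. A library at 0 counts still allows the 3 counts given above.

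By group, Avpr1b in the mPFC had median levels of 0 CPM in CTRL saline mice (0-3 counts), 0.0518 CPM in CTRL ketamine mice (0-6 counts), 0.049 CPM in CSDS saline mice (0-6 counts) and 0.0584 CPM in CSDS ketamine mice (0-5 counts). The highest mPFC value in each group lay between 0.162 and 0.262 CPM, and the lowest was 0 in all 4. In the vHipp the medians of Avpr1b were 0.0562 CPM in CTRL saline mice (0-4 counts), 0.0514 CPM in CTRL ketamine mice (0-11 counts), 0.0726 CPM in CSDS saline mice (0-6 counts) and 0.0935 CPM in CSDS ketamine mice (0-9 counts). The highest single values were 0.404 CPM in a CSDS ketamine mouse and 0.385 CPM in mouse 23 of the CTRL ketamine group. All 8 groups overlapped. The fourth receptor gene of the family, Avpr2, known from the kidney, had at most 2 counts in a library and was at 0 in 33 mPFC and 31 vHipp libraries.

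**Figure D1:**
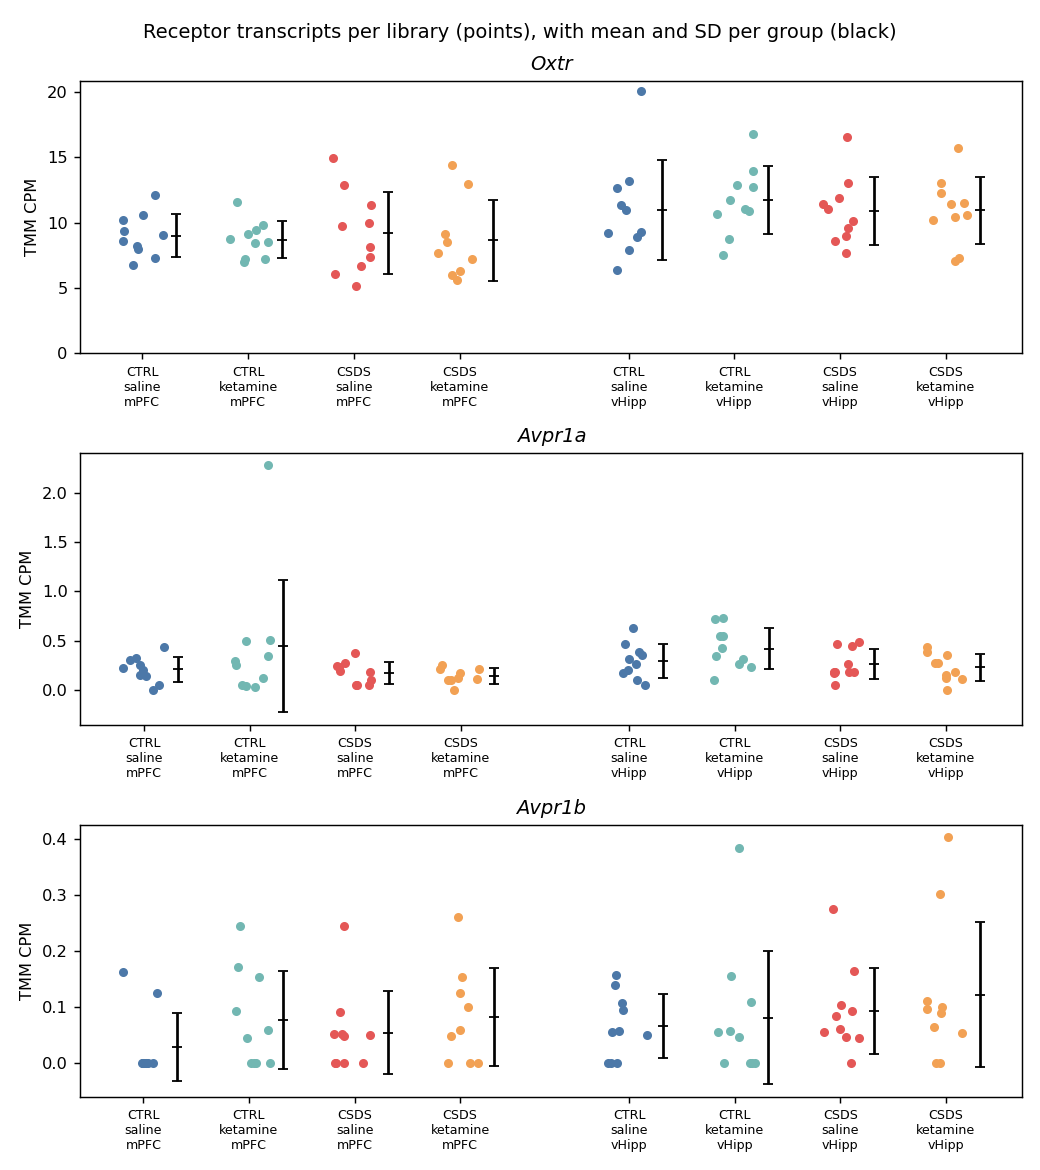
TMM-scaled CPM (vertical axis, a separate linear scale for each gene) of Oxtr, Avpr1a and Avpr1b in every library, by region and group (horizontal axis). Points are libraries and black marks are the mean and SD. Oxtr lay between 5.15 and 20.1 CPM and its groups overlapped, the mPFC library of mouse 26 stood alone for Avpr1a at 2.28 CPM, and many libraries were at 0 for Avpr1b.

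The first comparison asked whether receptor transcripts differed between the mPFC and the vHipp. Oxtr was lower in the mPFC, with a log2 fold change (LFC, mPFC minus vHipp, averaged over the 4 groups) of -0.33 ± 0.08 (SE, 95% interval -0.50 to -0.17, adjusted p = 0.000316, edgeR quasi-likelihood test). The mean levels were 8.89 CPM in the mPFC and 11.1 CPM in the vHipp. In the same test 48.9% of the 31534 genes tested passed the adjusted p threshold of 0.05, so a call in this comparison was common. Avpr1a (-0.47 ± 0.25, adjusted p = 0.118) and Avpr1b (-0.67 ± 0.39, adjusted p = 0.154) had LFCs of the same sign and did not pass.

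Most mice were measured in both regions, which allowed a comparison within the mouse. Oxtr was lower in the mPFC in 27 of 39 mice and higher in 12, with a mean difference of -0.30 ± 0.51 (SD, n = 39) in log2(CPM + 0.5) and p = 0.00082 in a two-sided sign-flip permutation test. The direction was held in each group, by 6 of 10 CTRL saline, 8 of 10 CTRL ketamine, 7 of 10 CSDS saline and 6 of 9 CSDS ketamine mice. With the mouse as a replicate block the fitted LFC of Oxtr was -0.32 ± 0.08 (adjusted p = 0.000947).

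The region difference of Avpr1a depended on the pairing and on a single library. With the mouse as a block its LFC was -0.56 ± 0.24 and it passed (adjusted p = 0.0476). Leaving out the set of 4 CTRL and 4 CSDS mice that includes mouse 26 gave -0.70 (adjusted p = 0.0158), and without the mPFC library of mouse 26 alone the unpaired fit gave -0.70 ± 0.22 (adjusted p = 0.00551). Within mice Avpr1a was lower in the mPFC in 25 of 39, with a mean log2 difference of -0.16 ± 0.46 (SD, n = 39, p = 0.0399, sign-flip permutation test). That difference was -0.20 ± 0.39 without mouse 26 (SD, n = 38, p = 0.00356, same permutation test). Avpr1b was lower in the mPFC in 22 mice, higher in 13 and equal in 4 (mean log2 difference -0.07 ± 0.29, SD, n = 39, p = 0.137, permutation test), and the block did not bring it past the threshold (adjusted p = 0.16).

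No relation between the 2 regions of a mouse was detected. Between the mPFC and the vHipp of 39 mice, Oxtr had r = -0.13 (permutation p = 0.443, rho = -0.14, p = 0.379), and r = -0.13 without the 2 mice farthest from the vHipp median. For Avpr1a r was 0.24 (permutation p = 0.149, rho = 0.14, p = 0.402) and 0.26 without the 2 farthest mice, or 0.12 without mouse 26. Avpr1b had r = -0.02 (permutation p = 0.927, rho = -0.12, p = 0.46), and r = -0.09 without them. After adjustment over 63 correlations none of the 3 passed (adjusted p for r 0.621, 0.336 and 0.983, for rho 0.556, 0.567 and 0.617).

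**Figure D2:**
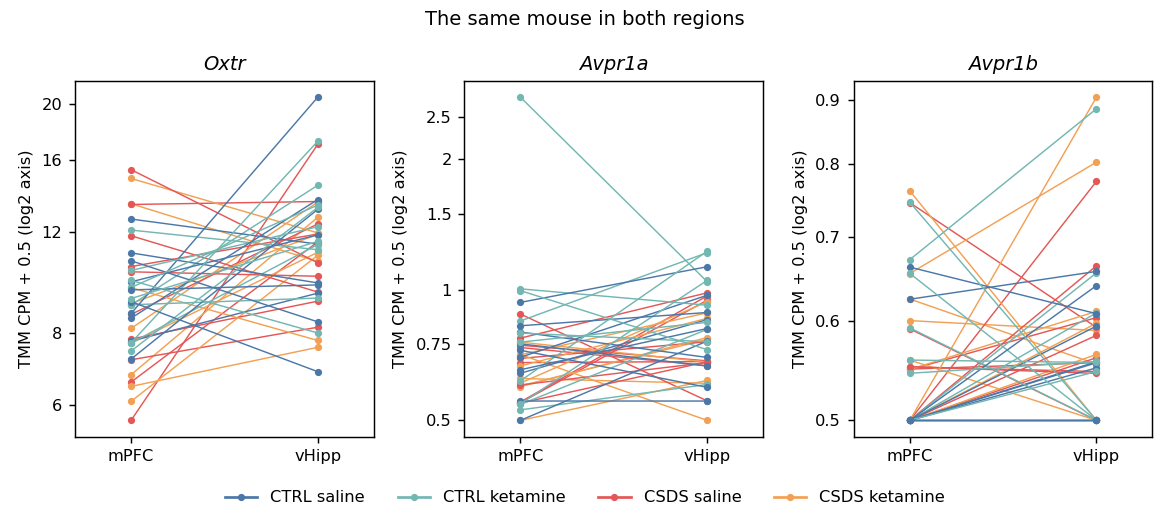
TMM-scaled CPM plus 0.5, on a log2 axis, of the 3 receptor genes in the mPFC and the vHipp of the 39 mice with both regions. Each line is a mouse, colored by group. For Oxtr 27 of 39 lines rise toward the vHipp, and the line that falls steeply for Avpr1a is mouse 26.

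The second set of comparisons asked whether stress or ketamine changed the receptors 7 days after injection, when the last defeat lay further back. None of the 3 genes passed in any of the 7 contrasts within the mPFC or the 7 within the vHipp. This was no different from other genes, since 0% of the 28993 genes tested in the mPFC and 0% of the 28991 tested in the vHipp passed in any of them by edgeR, and 0% of 31534 in the contrast of the stress effect between regions. Before adjustment, p was under 0.05 for 852-1681 genes per contrast in the mPFC, for 823-2816 in the vHipp and for 2162 between regions. DESeq2 called 14 genes for the averaged stress effect in the vHipp, none of them a receptor gene, and 0 elsewhere within a region or for the stress effect between regions. limma-voom, fitted within each region with a random effect for each run of 4 mice, called 0.

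For Oxtr the 95% intervals of these differences had bounds between -0.54 and 0.44 on the log2 scale, so some of them held a change as large as its region difference. The LFC between CSDS and CTRL mice was 0.03 ± 0.16 with saline and -0.0014 ± 0.17 with ketamine in the mPFC, and -0.01 ± 0.16 and -0.10 ± 0.16 in the vHipp. Averaged over treatments, the stress effect on Oxtr was 0.01 in the mPFC (95% interval -0.22 to 0.25, adjusted p = 1, edgeR) and -0.05 in the vHipp (-0.28 to 0.17, adjusted p = 0.917). Ketamine against saline, averaged over CTRL and CSDS mice, gave -0.08 in the mPFC (-0.31 to 0.16) and 0.05 in the vHipp (-0.17 to 0.27). Single-gene permutation tests of the 4 pairwise contrasts per region gave p between 0.489 and 0.984 for Oxtr. The interaction of stress and ketamine was -0.03 (-0.49 to 0.44) in the mPFC and -0.09 (-0.54 to 0.35) in the vHipp, and the stress effect differed between the regions by 0.08 (-0.25 to 0.40).

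For Avpr1a the contrast of CSDS with CTRL mice given ketamine had an unadjusted p under 0.05 in both regions, and neither passed the adjustment. In the mPFC its LFC was -1.58 ± 0.61 (unadjusted p = 0.0106, adjusted p = 0.83, edgeR), and in the vHipp it was -0.78 ± 0.38 (unadjusted p = 0.0437, adjusted p = 0.896). Permutation tests of the same contrast gave p = 0.125 (exact, 9 against 10 mice) in the mPFC and p = 0.0299 (100000 resamples, 10 against 10 mice, unadjusted) in the vHipp. The mPFC value rested on mouse 26, without which the LFC was -0.66 ± 0.52 (unadjusted p = 0.212, edgeR). In the vHipp the dentate gyrus markers of the same groups had median sums of 258 CPM in CSDS ketamine and 396 CPM in CTRL ketamine mice, and Avpr1a had r = 0.39 against that list over 40 mice (permutation p = 0.0121, adjusted p = 0.076, rho = 0.38, p = 0.0161, adjusted p = 0.145). Without the 2 farthest mice r was 0.38. In the same 2 groups the CA1 markers had median sums of 208.9 and 132.2 CPM, the deep layer markers 266.5 and 277.9 CPM and the striatal markers 60.1 and 56.6 CPM. At an unadjusted p under 0.05 stood 2 of 5 dentate, 2 of 5 deep layer and 2 of 6 striatal markers. Of the interneuron markers 1 of 6 did, and of the CA1 markers 0 of 4. Over all genes tested the share was 5.4%, and none of these markers passed the adjustment (edgeR). In the mPFC the deep layer markers had median sums of 184.7 CPM in CSDS ketamine and 248.7 CPM in CTRL ketamine mice, with 0 of 5 at an unadjusted p under 0.05. The choroid plexus markers there had 5.86 and 8.44 CPM, with 2 of 5 (median LFC -0.76). Of the striatal markers in the mPFC 1 of 6 stood under 0.05, beside 5.8% of all genes tested. The part of punch content in these contrasts was not tested. With saline the stress LFC of Avpr1a was -0.24 ± 0.60 in the mPFC and -0.18 ± 0.39 in the vHipp. The interaction of stress and ketamine did not pass in either region (mPFC -1.34 ± 0.85, adjusted p = 0.898, vHipp -0.60 ± 0.54, adjusted p = 1), so a difference between the saline and ketamine arms was not shown.

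Ketamine against saline in CTRL mice gave Avpr1a LFCs of 1.06 ± 0.54 in the mPFC (unadjusted p = 0.0537, adjusted p = 0.997, edgeR) and 0.47 ± 0.36 in the vHipp (adjusted p = 1). Without mouse 26 the mPFC value was 0.14 ± 0.47. In CSDS mice the ketamine LFCs were -0.28 ± 0.66 and -0.13 ± 0.40. Averaged over treatments, the stress effect on Avpr1a was -0.91 in the mPFC (95% interval -1.77 to -0.05, unadjusted p = 0.0379, adjusted p = 1, edgeR) and -0.44 ± 0.35 without mouse 26. It was -0.48 in the vHipp (-1.02 to 0.06, adjusted p = 0.567).

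The counts of Avpr1b bounded its differences only loosely. Its stress LFC with saline was 0.89 ± 0.98 in the mPFC (95% interval -1.09 to 2.87, from 12 counts in CSDS and 6 in CTRL mice) and 0.52 ± 0.70 in the vHipp (-0.90 to 1.93, from 18 and 15 counts). With ketamine it was 0.06 ± 0.78 in the mPFC and 0.43 ± 0.63 in the vHipp. Ketamine against saline in CTRL mice gave 1.41 ± 0.94 in the mPFC (-0.49 to 3.31, unadjusted p = 0.126, adjusted p = 0.997, edgeR) and 0.49 ± 0.69 in the vHipp. These intervals of Avpr1b hold both no change and large changes. What size of change its counts could detect was not tested.

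**Figure D3:**
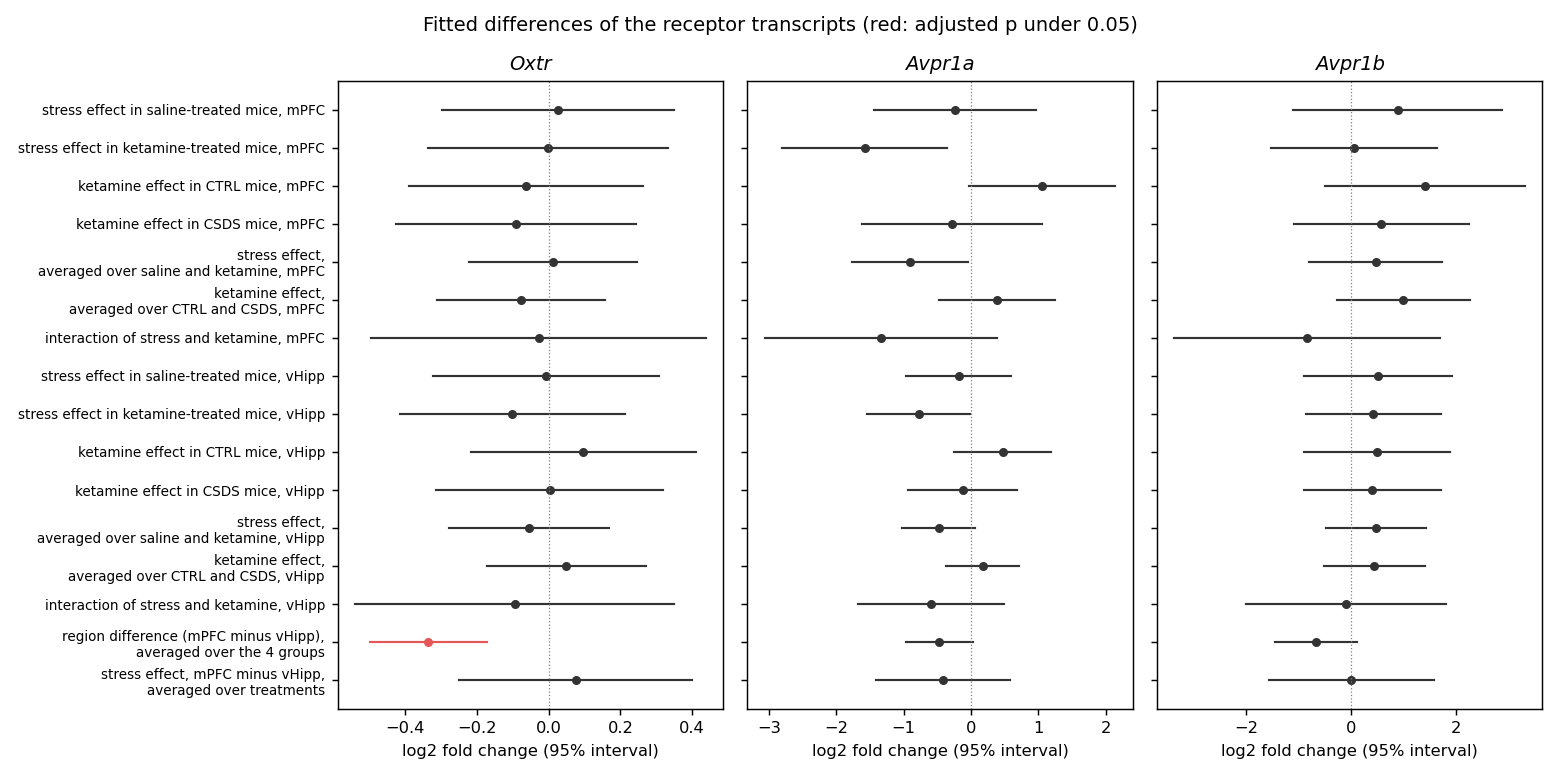
LFC (horizontal axis, a separate scale for each gene) with its 95% interval for Oxtr, Avpr1a and Avpr1b in 16 contrasts (rows), fitted by edgeR. Red marks an adjusted p under 0.05, reached only by the region difference of Oxtr at -0.33. The intervals widen from Oxtr to Avpr1b, whose mPFC interaction spans -3.36 to 1.70.

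The mPFC library of mouse 26 was examined further because several Avpr1a values turned on it. Its 45 counts of Avpr1a gave 2.28 CPM (exact 95% counting interval 1.67-3.05), against 0.505 CPM in the next library. Its depth was ordinary, with 19519631 counts and rank 20 of 39. Among the mPFC libraries it had the highest sum of the 6 interneuron markers, such as Gad1, at 974 CPM (others 636-893). It had the lowest sum of the 4 upper layer markers at 380 CPM (others 416-739). The 5 deep layer markers, such as Foxp2, summed to 278 CPM (rank 2 of 39), and the 6 striatal markers, such as Drd1, to 113.8 CPM (rank 4 of 39). The part of tissue content in its Avpr1a level was not tested.

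Across all mPFC libraries Avpr1a also moved with the layer markers. Each list was taken as the mean of log2(CPM + 0.5) over its genes. Against the upper layer list Avpr1a had r = -0.55 (permutation p = 0.00013, adjusted p = 0.00819) and rho = -0.52 (p = 0.00112, adjusted p = 0.0353, n = 39). Against the deep layer list it had r = 0.47 (permutation p = 0.00168, adjusted p = 0.0353) and rho = 0.53 (p = 0.00074, adjusted p = 0.0353). Avpr1a was thus higher in libraries with a higher deep layer list and lower in those with a higher upper layer list. Without mouse 26 r was -0.49 and 0.54 (adjusted p = 0.0287 and 0.0239, permutation tests), while the adjusted p of rho was 0.055 for both. Without the 2 mice farthest from the list's median r was -0.51 and 0.43, and neither passed the adjustment (adjusted p = 0.063 for both, permutation tests).

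Against the 6 vessel markers, such as Cldn5, Avpr1a in the mPFC had r = -0.44 (permutation p = 0.00425, adjusted p = 0.0535) and rho = -0.49 (p = 0.00203, adjusted p = 0.0356, n = 39), so it passed by rho and not by r. Without the 2 farthest mice r was -0.40 and neither passed (adjusted p = 0.0769 for r and 0.127 for rho, permutation tests), and without mouse 26 r was -0.48 and passed (adjusted p = 0.0287, permutation test).

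Oxtr in the mPFC moved with the upper layer list in the opposite direction to Avpr1a, with r = 0.47 against the upper layer list (permutation p = 0.00231, adjusted p = 0.0364) and rho = 0.39 (p = 0.0148, adjusted p = 0.145, n = 39). Without the 2 farthest mice r was 0.45 (adjusted p = 0.063, permutation test). In the vHipp Avpr1b had r = -0.51 against the same list (permutation p = 0.00076, adjusted p = 0.0239) and rho = -0.48 (p = 0.00226, adjusted p = 0.0356, n = 40), and r = -0.46 without the 2 farthest mice (adjusted p = 0.063). Its counts of 0-11 make that relation a description of few reads. Subtracting the group means left these 4 correlations past the threshold, with r between -0.55 and 0.49, while none passed by rho (adjusted p 0.0641-0.0659, permutation tests).

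**Figure D4:**
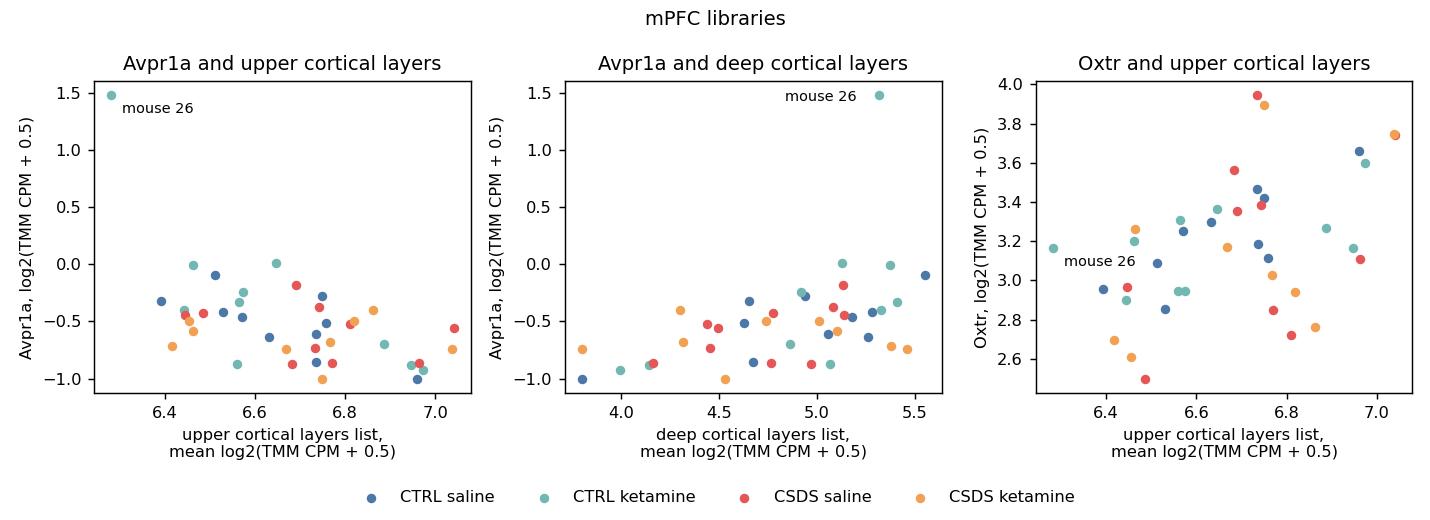
Avpr1a (left and middle) and Oxtr (right) in the 39 mPFC libraries, as log2(TMM CPM + 0.5) on the vertical axis, against the mean log2(TMM CPM + 0.5) of the upper or deep cortical layer markers on the horizontal axis. Points are libraries colored by group. Avpr1a falls with the upper layer list (r = -0.55) and rises with the deep layer list (r = 0.47), Oxtr rises with the upper layer list (r = 0.47), and mouse 26 stands far above the other libraries for Avpr1a.

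Avpr1b was set against the 7 CA2 markers Rgs14, Pcp4, Amigo2, Map3k15, Cacng5, Necab2 and Ntf3. In the vHipp, where a CA2 marker would be looked for, Avpr1b had r = -0.04 against their mean level (permutation p = 0.802, adjusted p = 0.919, rho = -0.01, p = 0.966, n = 40) and r = 0.02 without the 2 farthest mice. In the mPFC r was 0.41 (permutation p = 0.0104, adjusted p = 0.0725, rho = 0.37, p = 0.0198, n = 39). The mPFC relation depended on the setting. For Avpr1b r was 0.27 without the 2 farthest mice (permutation p = 0.104, adjusted p = 0.326), 0.47 with group means subtracted (adjusted p = 0.0301, permutation test) and 0.45 without mouse 26 (adjusted p = 0.0462, permutation test), so the latter 2 settings turned it to a call.

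The CA2 markers did not move as a unit between the regions. Of the 7, Amigo2, Necab2 and Ntf3 were lower in the mPFC (LFC -0.70 ± 0.09, -0.92 ± 0.08 and -1.73 ± 0.14, adjusted p at most 2.01e-10, edgeR). Ntf3, which encodes neurotrophin-3, had mean levels of 2.41 CPM in the mPFC and 8.03 CPM in the vHipp. Pcp4, Map3k15 and Cacng5 were higher in the mPFC (LFC 0.51 ± 0.08, 2.35 ± 0.18 and 0.62 ± 0.09, adjusted p at most 6.82e-08). Map3k15, a kinase gene, had 6.23 CPM in the mPFC against 1.22 CPM in the vHipp. Rgs14, a regulator of G protein signaling enriched in CA2, did not pass (-0.11 ± 0.06, adjusted p = 0.143). The list summed to 104.4-260.6 CPM in the mPFC and 157.4-247.4 CPM in the vHipp. By group the medians of this sum ran from 136.6 to 162.2 CPM in the mPFC and from 178 to 204 CPM in the vHipp, and none of the 7 genes passed in a stress or ketamine contrast.

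The genes whose levels followed each receptor most closely within a region were listed by Pearson's r after group means were subtracted, among 13394-13464 protein-coding genes of at least 1 CPM. These are descriptions across libraries that share tissue content, with no test. In the mPFC Oxtr was most like Pdyn, the gene of the opioid precursor prodynorphin (r = 0.80, n = 39), followed by Cdh22, Myh7, Zfp575 and Wfs1 (r = 0.75-0.78). Wfs1 is also in the CA1 list. In the vHipp the top genes for Oxtr were Fxyd6, Sdk1, Trpc7, Rxrg and Rab3c (r = 0.69-0.72, n = 40), none of which was on its mPFC list. Mouse 30, highest for Oxtr in the vHipp, was also first for Fxyd6 and Sdk1 and second for the other 3. Without it 3 of the 5 stayed, and Piezo2 and Celf6 (r = 0.69 and 0.68, n = 39) took the places of Fxyd6 and Rab3c (0.65 for both).

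For Avpr1a in the mPFC the closest genes were Dlx6 (r = 0.76), Sp9 (0.75), Trpc4 (0.73) and Prokr2 (0.73). Dlx6 and Sp9 encode transcription factors of the GABAergic lineage of the ventral forebrain. Mouse 26 was first of 39 libraries in all 4, with 12.9 CPM of Dlx6 (others 4.98-8.07), 11.1 CPM of Sp9 (others 3.15-6.49), 29.8 CPM of Trpc4 (others 9.18-20.0) and 4.11 CPM of Prokr2 (others 0.451-1.83). Without it the 4 correlations were 0.45-0.62, and the 5 closest genes became Emb, Col24a1, Pde4a, Fezf2 and Astn2 (r = 0.64-0.67, n = 38, a list made after the values of mouse 26 were seen), with 0 of the 4 genes above among them. Fezf2, a transcription factor of deep layer projection neurons, is also in the deep layer list. In the vHipp the closest to Avpr1a were Cipc (r = 0.71), Hace1, Stc2, Mphosph9 and Rbm5 (0.62-0.65, n = 40). Avpr1b, with its few counts, was closest to Meis1 in the mPFC (r = 0.63) and to Rasd1 in the vHipp (r = 0.66).

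Transcripts of the peptides were present at low and uneven levels. Oxt ran from 0.11 to 13.8 CPM in the mPFC around a median of 0.58, and from 0.135 to 7.99 CPM in the vHipp around 1.17. Avp ran from 0 to 7.10 CPM in the mPFC around 0.266, and from 0 to 4.52 CPM in the vHipp around 0.605. The same libraries were high for both peptides. Mouse 25 had the highest and mouse 34 the next highest mPFC level of Oxt (13.8 and 6.24 CPM) and of Avp (7.10 and 5.20 CPM), and both were CTRL ketamine mice. In the vHipp mice 27, 9 and 8 held the 3 highest levels of each peptide. In CTRL mice the mPFC LFC of ketamine against saline was 1.52 ± 0.67 for Oxt and 1.80 ± 0.70 for Avp (unadjusted p = 0.0278 and 0.0131, adjusted p = 0.997 for both, edgeR), which did not pass. Between regions neither passed (Oxt -0.21 ± 0.31, Avp -0.42 ± 0.34), while Avp passed with the mouse as a block (-0.58 ± 0.24, adjusted p = 0.0489).

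The rest of the pathway was followed through 29 listed genes besides the 3 receptors. In the region difference 24 of them passed, where 48.9% of all genes tested did. That share includes many sparse genes. Among the 18973 genes kept by a stricter count filter (filterByExpr), 12481 passed in the same comparison. Peptide processing enzymes differed in both directions. Pcsk1 and Pcsk2, the prohormone convertases, and Pam, which amidates peptides, were higher in the mPFC (LFC 1.13 ± 0.08, 0.93 ± 0.05 and 0.49 ± 0.04). Cpe, the carboxypeptidase of the same route, Lnpep, the aminopeptidase that degrades oxytocin, and Cd38, which is needed for oxytocin release, were lower in the mPFC (LFC -0.50 ± 0.03, -0.25 ± 0.06 and -1.40 ± 0.11). The highest adjusted p among the pathway genes named here as higher or lower was that of Lnpep, 0.000254 (edgeR). Cd38 had 2.08 ± 0.742 CPM (SD, n = 39) in the mPFC and 5.46 ± 1.92 CPM (SD, n = 40) in the vHipp.

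Of 12 genes of Gq coupling, 4 were higher and 7 lower in the mPFC. The median LFC of the list was -0.13, beside -0.00025 over all genes tested. Gnaq and Gna11, the G protein subunits, were lower in the mPFC (-0.35 ± 0.04 and -0.25 ± 0.02), in the direction of Oxtr. Plcb4, a phospholipase C, and Itpr1, the main neuronal inositol trisphosphate receptor, were higher (1.04 ± 0.07 and 1.34 ± 0.08), and Prkca, a protein kinase C, was lower (-0.89 ± 0.07). Of 8 genes of receptor desensitization 6 were higher and 1 lower in the mPFC, with a median LFC of 0.48. Rgs4, which shortens Gq signals, was highest among them at 1.76 ± 0.05 (423.4 against 124.5 CPM), followed by the receptor kinase Grk5 at 1.49 ± 0.04 (37.8 against 13.3 CPM). In the stress and ketamine contrasts 0 of the 28 pathway genes tested passed in either region (lowest adjusted p = 0.34, edgeR).

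**Figure D5:**
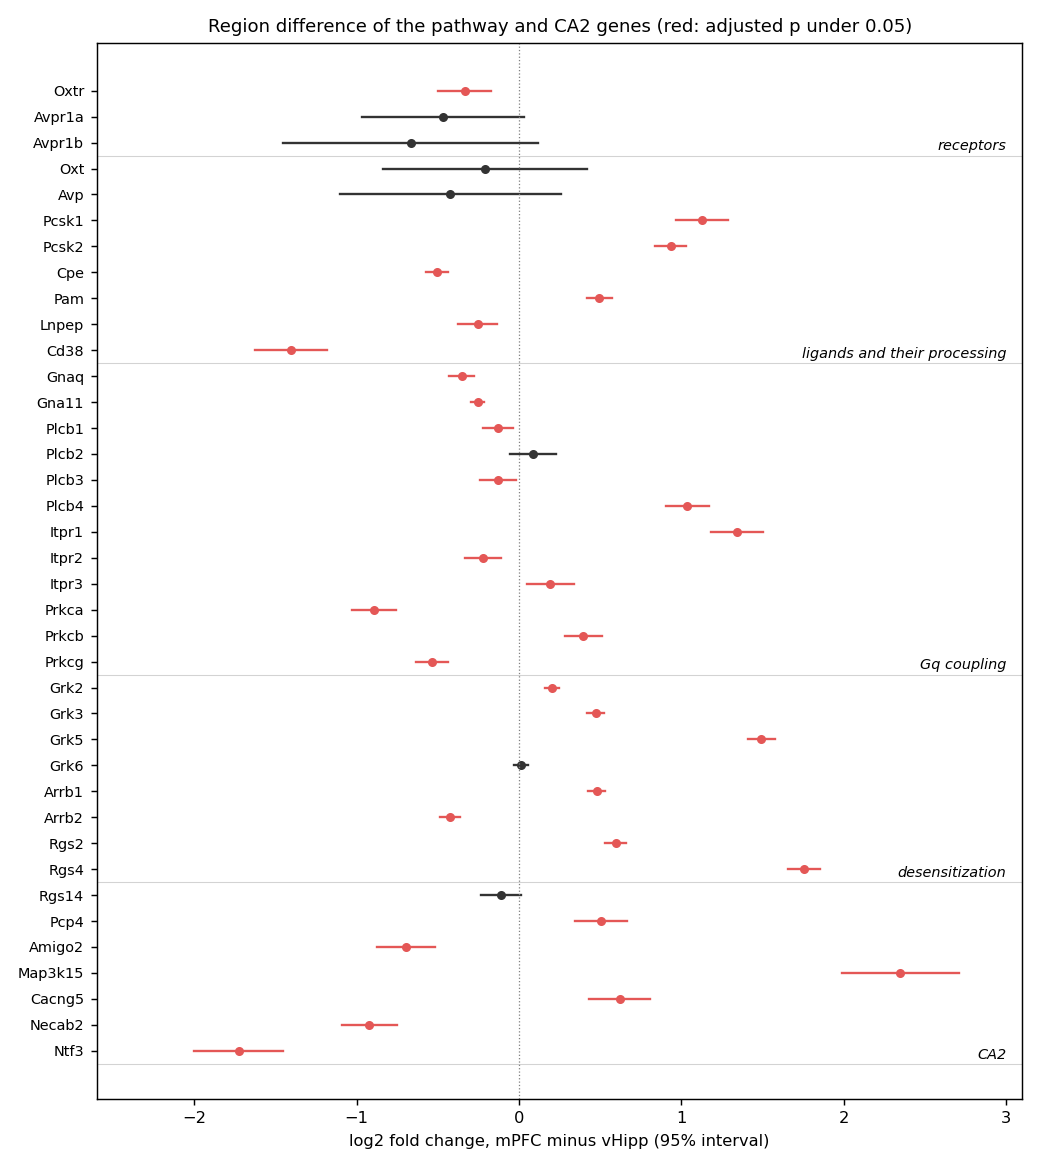
LFC between the mPFC and the vHipp (horizontal axis, positive where higher in the mPFC) with 95% intervals for the receptors, the ligands and their processing, Gq coupling, desensitization and the CA2 markers (rows). Red marks an adjusted p under 0.05. Avpr2, with too few counts for an interval, is not drawn. Oxtr at -0.33 is the only receptor in red, and Rgs4 (1.76), Map3k15 (2.35) and Ntf3 (-1.73) are far from 0.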

How the data were processed

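Bulk RNA sequencing covered 79 libraries, 39 of the mPFC and 40 of the vHipp. RNA was extracted with the miRNeasy Micro kit and sequenced as stranded mRNA libraries, and bcl2fastq 2.20.0.422 is named in the submitters' processing notes. The authors deposited raw counts per gene on GRCm38, without normalization. The aligner and the counter are not given in the sources used here. The authors had dropped RNA with a poor integrity number and a single outlying sample. Region, stress, treatment and mouse were taken from the labels, while the social box and the rank within it did not enter any fit. A replicate is a mouse, so p-values measure the spread between mice. By the paper, whole groups of cage mates were either defeated or kept as controls. The main edgeR fits and the permutation tests treat cage mates as independent, so their SEs and p-values for stress leave this sharing out.

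Of 55471 gene identifiers 55230 matched a symbol in GENCODE M21, also the source of biotypes. Genes with more than 10 counts in total and a count in more than 3 libraries of the fit were tested with edgeR 4.0.16 in R 4.3.3 (TMM, quasi-likelihood test, two-sided, all groups of a region in one fit, or all 79 libraries between regions). Benjamini-Hochberg adjustment ran over all genes tested, with a threshold of 0.05. LFCs of named genes are unshrunken contrasts with Wald SEs. For plots and levels TMM factors over all 79 libraries were used. Exact 95% intervals and the floor of 3 counts cover counting error only. Permutation tests were exact with 9 mice in a group and otherwise used 100000 resamples (scipy 1.17.1), on log2(CPM + 0.5). Libraries of the same mouse come from the same animal, and their deviations from the group means correlated with a median r of 0.26 (over 0.1 in 36 of 39 mice, 15702 genes). The fits were tested on simulated data with known changes. The changed genes had higher mean counts than Avpr1a and Avpr1b, and libraries were drawn independently. That test therefore does not cover such sparse genes, or libraries that share a mouse or a cage. Alternatives were DESeq2 1.42.0, limma-voom with a random effect for each run of 4 mice (limma 3.58.1), RLE factors, other filters, mouse-number sets as a covariate or left out (a set is a run of 4 CTRL and a run of 4 CSDS mouse numbers), only the groups compared, the mouse as a block and, chosen after the data were seen, the removal of mouse 26 or mouse 30.

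The members and gene lists were chosen with earlier results of these data known. The genes named are the members, the listed genes and, for each member and region, the 5 genes of highest r, of which 1 is not reported here. Wfs1 falls under both of the last, and the closest genes without mouse 26 or mouse 30 were added after the data were seen.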

Additional observations from a re-analysis of the deposited data

Results flagged for a closer look

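Among 24 groups of 9 or 10 libraries (3 genes, 2 regions, 4 groups), 4 held a library whose distance to its nearest neighbor was large for the range of its group by Dixon's criterion at 95%. About 1.2 such groups would be expected by chance if values were normally distributed. The sparse and skewed counts of Avpr1a and Avpr1b are not, so for them this number is no guide.

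For Avpr1a, mouse 26 of the CTRL ketamine group had 2.28 CPM in the mPFC (45 counts), and the next library had 0.505 CPM. For Oxtr, mouse 30 of the CTRL saline group had 20.1 CPM in the vHipp (426 counts), and the next had 13.2 CPM. Its vHipp library ranked 19 of 40 in depth. It ranked 37 of 40 for the CA3, 39 of 40 for the choroid plexus and 4 of 40 for the interneuron markers. For Avpr1b, mouse 23 of the CTRL ketamine group had 0.385 CPM in the vHipp (11 counts) against 0.155 CPM (6 counts) in the next. Its library ranked 5 of 40 in depth, 2 of 40 for the CA1 markers and 3 of 40 for the CA2 markers. It ranked 38 of 40 for the upper layer markers and 35 of 40 for the deep layer markers. Also for Avpr1b, mouse 2 of the CSDS saline group had 0.245 CPM in the mPFC (6 counts) against 0.0913 CPM (2 counts) in the next. It ranked 1 of 39 for the CA2, 2 for the vessel, 3 for the dentate gyrus and 4 for the choroid plexus markers. For the CA1 and striatal markers it ranked 36 and 37 of 39. The part of tissue content in these values was not tested.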

How the results depend on the processing

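Oxtr kept its lower level in the mPFC and its call under all alternatives run, with LFCs of -0.24 to -0.42 when sets of mouse numbers were left out. With the mouse as a replicate block the region LFC of Avpr1a was -0.56 and passed, and the block changed no other call of a member. Without mouse 26 the region LFC of Avpr1a was -0.70 and passed, and r of Avpr1b with the CA2 list in the mPFC was 0.45 and passed. Subtracting group means gave 0.47 for that r, which passed, and 0.00068 in the vHipp. Without the 2 mice farthest in the list, r was 0.45 for Oxtr with upper layers, 0.43 and -0.51 for Avpr1a with deep and upper layers in the mPFC and -0.46 for Avpr1b with upper layers in the vHipp, none of which passed, and 0.022 for Avpr1b with CA2 in the vHipp. For Avpr1a with the vessel list in the mPFC, r passed at -0.46 with a pseudocount of 0.1, -0.45 with group means subtracted and -0.48 without mouse 26. DESeq2 called 14 genes for averaged stress in the vHipp against 0 by edgeR. Apart from the region difference of Avpr1a and these correlations, no member crossed the threshold, and the signs below changed among values that did not pass. The causes were not tested.

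With the set as a covariate the LFCs were -0.038 (Avpr1b, stress with ketamine, mPFC), -0.010 (Oxtr, averaged stress, mPFC), 0.0089 and -0.0082 (Oxtr in the vHipp, stress with saline and ketamine in CSDS), 0.29 (Avpr1b, interaction, vHipp) and -0.092 (Avpr1b, stress by region). With limma-voom and the run as a random effect, a change of both tool and model, they were -0.0051 and -0.042 (Oxtr in the mPFC, stress with saline and averaged), 0.054 and -0.024 (Oxtr in the vHipp, stress with saline and ketamine in CSDS) and 0.093 (Avpr1b, interaction, vHipp). Without mouse 26 they were -0.089 (Avpr1b, stress with ketamine, mPFC), -0.076 (Avpr1a, averaged ketamine, mPFC), and 0.051 and -0.061 (Avpr1a and Avpr1b, stress by region). Without mouse 30 Oxtr in the vHipp had 0.14 (stress with saline), 0.021 (averaged stress) and -0.00051 (ketamine in CSDS). The last was -0.00063 with no filter and -0.0017 with only the 2 groups compared. Avpr1b, stress by region, was -0.033 with DESeq2, -0.0053 with no filter, -0.025 without mouse 30 and -0.0090 with RLE factors.

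Leaving out each set in turn, Oxtr in the mPFC ranged from -0.14 to 0.062 (stress with ketamine), -0.12 to 0.12 (interaction), -0.063 to 0.093 (stress with saline), -0.079 to 0.059 (averaged stress) and -0.18 to 0.036 (ketamine in CSDS). In the vHipp it ranged from -0.24 to 0.073 (interaction), -0.083 to 0.12 (ketamine in CSDS), -0.18 to 0.22 (stress with saline), -0.15 to 0.094 (averaged stress) and -0.0055 to 0.080 (averaged ketamine), and for stress by region from -0.061 to 0.19. Avpr1a ranged in the mPFC from -0.047 to 1.53 (ketamine in CTRL), -0.29 to 0.69 (averaged ketamine) and -0.43 to 0.013 (stress with saline). In the vHipp it ranged from -0.50 to 0.28 (ketamine in CSDS), -1.02 to 0.047 (interaction) and -0.53 to 0.30 (stress with saline). Its region LFC ranged from -0.70 to -0.32 and its stress by region from -0.62 to 0.028. Avpr1b ranged in the mPFC from -0.48 to 0.71 (stress with ketamine) and -2.04 to 0.0064 (interaction). In the vHipp it ranged from -0.77 to 0.76 (ketamine in CTRL), -0.59 to 1.77 (interaction), -0.25 to 2.05 (stress with ketamine) and -0.18 to 1.00 (ketamine in CSDS), and for stress by region from -0.70 to 0.68. Filtering with filterByExpr removed Avpr1a and Avpr1b, and a group left with 0 counts gave no value. Depth limits Avpr1b most, with 50 counts in the mPFC and 80 in the vHipp.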
